A study of Chrysanthemum x morifolium with 6 samples.

Results

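The plant LIM domain proteins described here are 8 sequence clusters from roots of the chrysanthemum cultivar jinba. They are the clusters that the deposited regulator table files in its LIM family and whose best Swiss-Prot match is a flowering plant protein. That is 8 of 53 LIM-family clusters and of 10744 clusters in the table. Roots came from 1-month-old seedlings in 2 groups, given 100 mM salt water or, as the control, purified water. All plants were grown in a greenhouse at a 16 h photoperiod and roots were taken 24 h after treatment. Each group has 3 libraries that the labels call biological replicates, and the labels name no transgene or mutation. The comparison addresses how chrysanthemum roots respond to salt.

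A LIM domain is a zinc-binding finger pair through which proteins bind other proteins. The plant WLIM and PLIM proteins carry a pair of these domains and, in tobacco and Arabidopsis, bind and bundle actin filaments, WLIM proteins in many tissues and PLIM proteins mainly in pollen. In tobacco a WLIM1-type protein also binds a promoter element of lignin pathway genes, and a WLIM2-type protein a histone H4 promoter. DA1 and its relatives are a separate plant group with a LIM domain, and in Arabidopsis DA1 is a peptidase that limits organ growth.

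By name the 8 clusters were 3 WLIM1, 3 WLIM2b and 2 matching a probable receptor-like protein kinase of Arabidopsis. No cluster of the LIM family matched WLIM2a, a PLIM protein, the pollen protein SF3 or DA1. All 8 had a LIM domain hit in the deposited annotation. The 2 kinase-named clusters also had a protein kinase hit and shared a FERONIA-like potato protein as their best hit in the NR protein database, so they are described by their match and not as LIM proteins. The deposited annotation also listed a WRKY domain hit for 3 WLIM clusters. The 8 clusters had 5 different best NR proteins. Cluster-71316.170046 and Cluster-71316.170047 shared one, as did Cluster-71316.171493 and Cluster-71316.205150, so clusters of a pair can be copies of 1 gene and can share reads. In 3 of the 8 clusters the predicted coding region ran on the minus strand of the cluster, and whether counting used strand is not given in the sources used here.

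Sequencing depth was 14.5 ± 1.68 M fragments in salt and 17.4 ± 2.35 M in control (SD, n = 3) (M for mega). The regulator table held 4.07% ± 0.0515 of the depth in salt and 4.75% ± 0.00712 in control (SD, n = 3). Root regulators were present in both groups, among them SHORT-ROOT and SCARECROW, which pattern the ground tissue. Of 5284 regulator clusters tested by edgeR, 23.9% were called higher and 29.3% lower in salt at an adjusted p under 0.05 (Benjamini-Hochberg), 53.2% in all. Higher calls made up 44.9% of calls, against 57.2% with DESeq2 size factors and 65.9% when libraries were scaled on plant-matched clusters. The median log2 fold change of tested clusters was -0.37. Among the 3829 tested clusters with a flowering plant match, 12.3% were called higher and 35.5% lower, and the median was -0.62.

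Of 3 WLIM1 clusters, 2 were called higher in salt and 1 was not called, and of 2 tested WLIM2b clusters, 1 was called lower and 1 was not called. Of 6 plant LIM clusters that passed the filter on low counts, edgeR called 2 higher, both WLIM1, and 2 lower, 1 WLIM2b and 1 kinase-named. The other 2 tested clusters were not called, and the 2 below the filter were not tested. These shares of 2 in 6 stand beside the 23.9% and 29.3% of all tested clusters. The kinase-named cluster can have passed the filter through the control libraries alone, so its lower call is not support for a difference. Scaled on plant-matched clusters, edgeR called 4 higher and 0 lower (0 lower also at an unadjusted p under 0.05; 1 lower by DESeq2 with its own scaling), beside 32.9% and 17% of all tested clusters.

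By summed FPKM, WLIM1 was the most abundant name. Its most abundant cluster, Cluster-71316.170809, is 1042 bases long with a predicted coding region of 184 codons, and its best NR match is sunflower WLIM-1. It stood at 170.81, 141.69 and 166.43 FPKM (fragments-per-kilobase-per-million) in salt libraries 1 to 3, against 95.42, 91.66 and 89.29 FPKM in control libraries 1 to 3. Every salt library was above every control library. Groups did not overlap in this direction in 26% of tested clusters. Its log2 fold change was 0.92 ± 0.085 (SE), 1.89-fold, with an edgeR adjusted p of 4.2e-04. By mean FPKM it ranked 72 of 10744 regulator clusters.

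Cluster-71316.170047, a further WLIM1 of 824 bases, had 108.59, 96.01 and 88.59 FPKM in salt and 76.31, 70.41 and 66.78 FPKM in control. The lowest salt library was above the highest control library. The log2 fold change was 0.58 ± 0.10 (SE), 1.497-fold, with an edgeR adjusted p of 0.0036.

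Cluster-71316.170046, the WLIM1 cluster of 717 bases with the same grape NR match, had 42.59, 38.21 and 29.54 FPKM in salt and 28.49, 34.12 and 32.43 FPKM in control. Salt library 3 lay within the control range, so the groups overlapped. The log2 fold change of 0.34 ± 0.16 (SE) was not called (edgeR adjusted p = 0.13). Without salt library 3 it was 0.47 and was called (edgeR adjusted p = 0.036), and with libraries scaled on plant-matched clusters it was 0.79 and was called (edgeR adjusted p = 0.0051). Because the cluster shares its NR match with Cluster-71316.170047, how reads divide between them is uncertain.

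**Figure D1:**
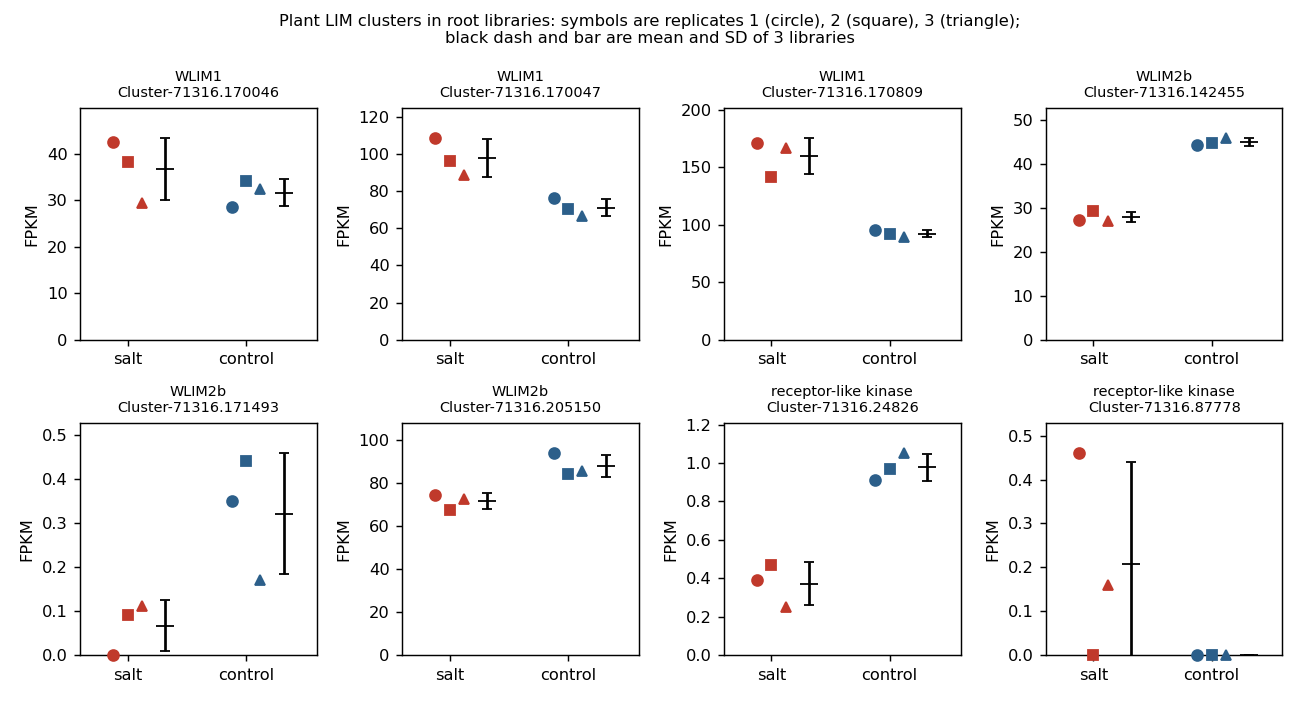
FPKM of each of the 8 plant LIM clusters in salt libraries (red, left) and control libraries (blue, right), with the mean and SD of 3 libraries in black and axes starting at 0. The 3 salt libraries lie above all control libraries in Cluster-71316.170809 and Cluster-71316.170047, and below them in Cluster-71316.142455, Cluster-71316.205150, Cluster-71316.171493 and Cluster-71316.24826.

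WLIM2b was represented by a pair of abundant clusters, each with a predicted coding region of 204 codons, and by 1 rare cluster. Cluster-71316.142455, of 1330 bases, had 27.3, 29.27 and 27.03 FPKM in salt and 44.15, 44.69 and 45.81 FPKM in control. All salt libraries were lower, as they were in 42.6% of tested clusters. Its log2 fold change was -0.56 ± 0.071 (SE), 0.677-fold, with an edgeR adjusted p of 0.0012. In bulk root RNA, fewer cells of a type and less RNA per cell cannot be told apart. Scaled on plant-matched clusters the value was -0.10 and the call was lost (edgeR adjusted p = 0.31).

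Cluster-71316.205150, of 1098 bases, was the more abundant WLIM2b at 74.8, 67.64 and 72.76 FPKM in salt, against 94.02, 84.34 and 85.66 FPKM in control. Every salt library was lower in FPKM, and groups did not overlap in either direction in 68.6% of tested clusters. Its log2 fold change of -0.17 ± 0.071 (SE) missed the threshold (edgeR adjusted p = 0.083), and its direction depended on the scaling. It was -0.29 without a composition factor and was called lower (edgeR adjusted p = 0.011), but 0.28 with libraries scaled on plant-matched clusters and was called higher (edgeR adjusted p = 0.0089). Limma on log2(FPKM + 1), which called 20.8% of 4979 regulator clusters higher and 36.2% lower, called it lower at -0.29 (limma adjusted p = 0.031).

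Cluster-71316.171493, the third WLIM2b, had a predicted coding region of 130 codons. It had 0, 1.83 and 1.81 expected counts in salt and 7.23, 11.37 and 3.48 in control, and did not pass the filter. Both groups are too close to the limit of 3 counts per library to give a fold.

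Against the median of all tested clusters, the log2 fold change was 1.28 higher for Cluster-71316.170809, 0.95 higher for Cluster-71316.170047 and 0.70 higher for Cluster-71316.170046. It was -0.20 for Cluster-71316.142455 and 0.19 for Cluster-71316.205150. Among all tested clusters, the log2 fold changes of the WLIM1 clusters stood at percentiles 66.4 to 75.0 and those of the WLIM2b clusters at percentiles 44.1 and 55.1. That median also covers clusters with no flowering plant match, and the plant-matched median of -0.62 lies below the values of all 5 WLIM clusters.

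**Figure D2:**
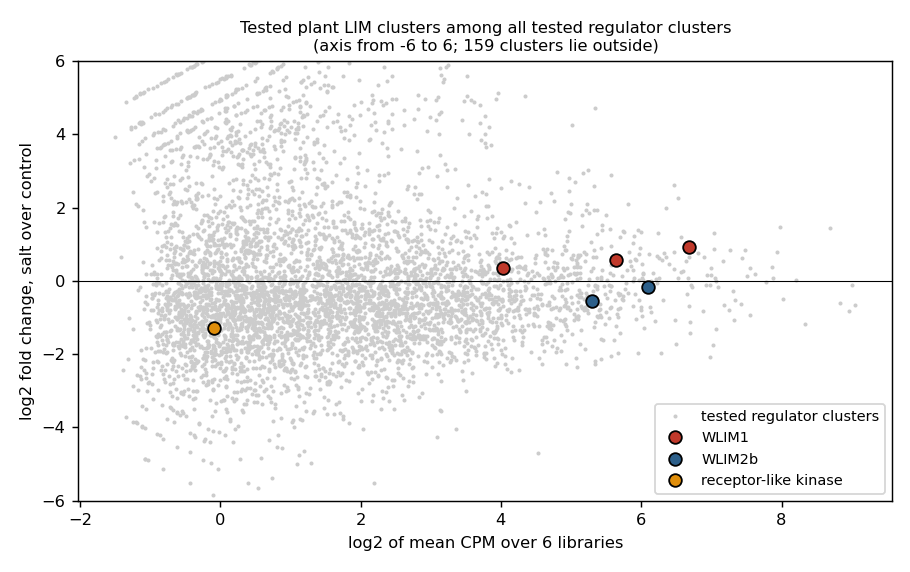
Log2 fold change of salt over control (y axis) against log2 of mean CPM over 6 libraries (x axis) for 5284 tested regulator clusters (grey), with tested plant LIM clusters in colour and 159 clusters outside the plotted range. The WLIM1 clusters (red) lie above 0, and the WLIM2b clusters (blue) and the kinase-named cluster (orange) below 0.

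The levels of the names can be set side by side in FPKM, which is per length. The length it divides by came out 240 bases under the cluster length on average in salt, which raises short clusters more. Summed over 3 clusters, WLIM1 stood at 321.99, 275.91 and 284.56 FPKM in salt and 200.22, 196.19 and 188.5 FPKM in control. WLIM2b summed to 102.1, 97 and 99.9 FPKM in salt and 138.52, 129.47 and 131.64 FPKM in control. The order WLIM1, WLIM2b, kinase-named held in every library, and the gaps between names exceeded the spread of libraries. The kinase-named clusters summed to 0.577 ± 0.239 FPKM in salt and 0.977 ± 0.0702 FPKM in control (SD, n = 3).

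The ratio of WLIM1 to WLIM2b was not among the planned results. Within a library this ratio does not depend on how libraries are scaled. It was 3.15, 2.84 and 2.85 in salt and 1.45, 1.52 and 1.43 in control, so all salt libraries were higher, and its mean was 2.01 times higher in salt. From counts, without the length correction, the ratio was 2.35, 2.09 and 2.17 in salt and 1.04, 1.08 and 1.02 in control. WLIM1 made up 74.6% ± 1.11 of the summed FPKM of both names in salt and 59.4% ± 0.731 in control (SD, n = 3). Each of the 6 ratios of a WLIM1 cluster to an abundant WLIM2b cluster was higher in every salt library than in any control library, by 0.50 to 1.48 on the log2 scale. Each had a p of 0.1 by a two-sided exact permutation test, which is the smallest that 3 against 3 libraries allow, and 0.1 after adjustment over the 6 ratios. Groups that do not overlap fix these values in advance. The 6 ratios reuse the same clusters and libraries, so they are not repeated evidence. A shift in the ratio shows unequal change of the names and not which of them moved.

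**Figure D3:**
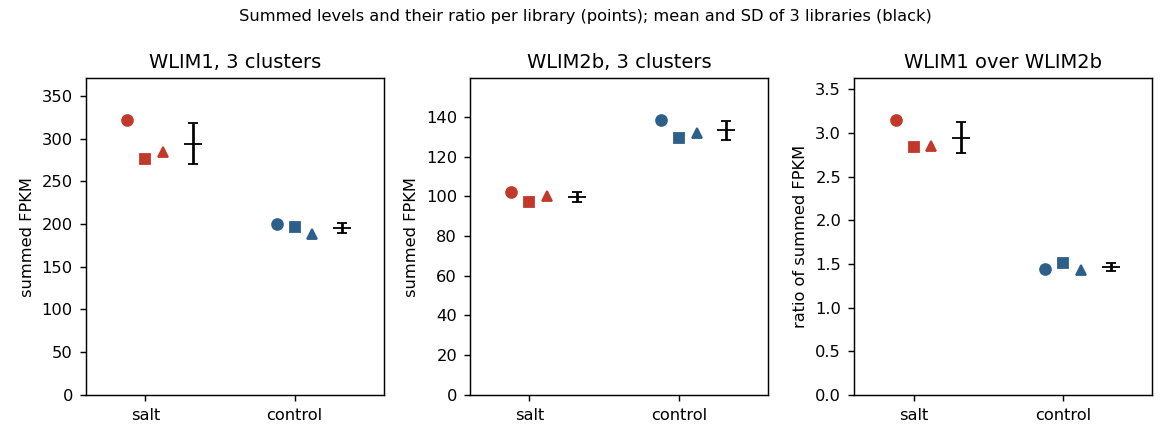
Summed FPKM of 3 WLIM1 clusters (left), of 3 WLIM2b clusters (middle) and the ratio of these sums (right) per library, salt left of control in each panel, with mean and SD in black. The ratio lies between 2.84 and 3.15 in salt libraries and between 1.43 and 1.52 in control libraries.

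The composition within WLIM1 also differed. Cluster-71316.170809 made up 54.3% ± 3.73 of the WLIM1 sum in salt and 47.2% ± 0.480 in control (SD, n = 3), higher in all salt libraries. Within WLIM2b, Cluster-71316.205150 made up 71.9% ± 1.93 in salt and 66.03% ± 1.598 in control (SD, n = 3).

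The kinase-named clusters were rare. Cluster-71316.24826, of 1665 bases, had 8.12, 10.89 and 4.47 expected counts in salt and 21.03, 27.83 and 23.75 in control. All salt libraries were lower. The log2 fold change was -1.30 ± 0.42 (SE), with an edgeR adjusted p of 0.039. The call was lost in 13 of 15 alternatives that gave a value, among them each of the 6 fits that left out a library. With so few counts in salt, the cluster can have passed the filter through the control libraries alone. Its lower call is therefore not support for a difference. Cluster-71316.87778, of 2085 bases, had 12.46, 0 and 3.82 expected counts in salt and 0 in every control library, where 3 counts correspond to 0.148 to 0.176 CPM. It did not pass the filter.

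**Figure D4:**
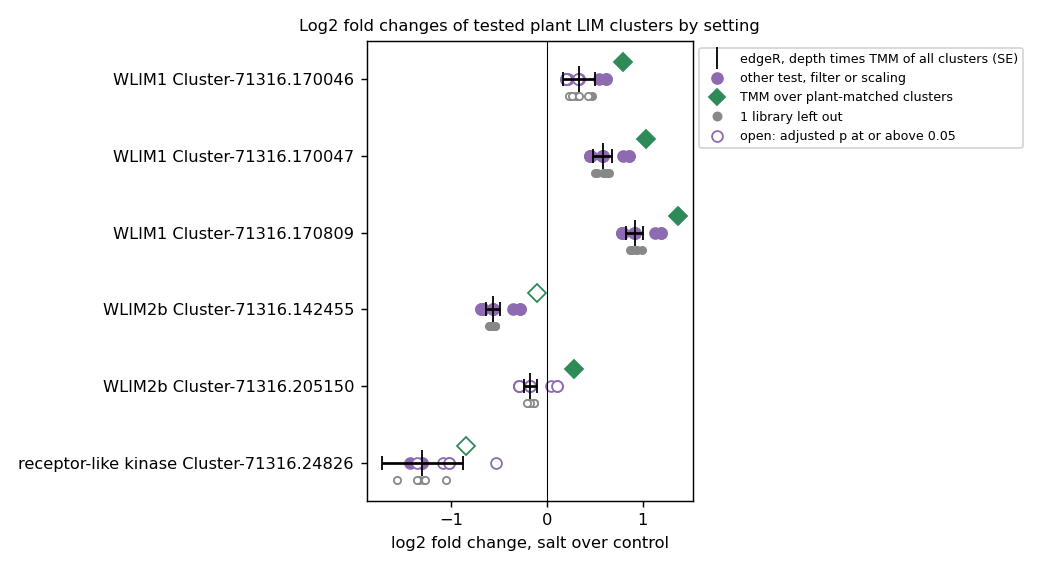
Log2 fold change of salt over control for 6 tested plant LIM clusters, with the edgeR estimate and SE in black, other tests, filters and scalings in purple, scaling on plant-matched clusters in green and fits without 1 library in grey. Filled symbols have an adjusted p under 0.05. Cluster-71316.170809 and Cluster-71316.170047 are filled throughout, and Cluster-71316.205150 lies on both sides of 0.

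In the authors' deposited table the log2 ratio of salt to control was 0.986 for Cluster-71316.170809, 0.652 for Cluster-71316.170047 and 0.409 for Cluster-71316.170046. The authors' deposited table gave -0.490 for Cluster-71316.142455 and -0.101 for Cluster-71316.205150. For the 3 rare clusters, the authors' deposited table gave -1.87 for Cluster-71316.171493, -1.24 for Cluster-71316.24826 and 5.31 for Cluster-71316.87778. The q-values in the authors' deposited table were 1.95e-26 for Cluster-71316.170809, 6.40e-08 for Cluster-71316.170047 and 1.98e-05 for Cluster-71316.142455, and between 0.129 and 0.497 for the other 5. The up or down column of the authors' deposited table nevertheless marked none of the 8, and the rule behind that column is not stated.

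Further clusters with plant LIM names stand in the deposited family Orphans and lie outside the 8. These 35 clusters were 5 WLIM1, 2 WLIM2a, 1 WLIM2b, 3 PLIM, 1 SF3 and 23 DA1 or DA1-related. Of the 3 tested WLIM1 clusters among them, edgeR called 2 higher and 0 lower, also at an unadjusted p under 0.05, and DESeq2, which tested all 5, called 3 higher and 1 lower. Without a composition factor edgeR called 1 of the 3 higher. Of all tested clusters 23.9% were called higher and 29.3% lower. Cluster-71316.200868, of 490 bases, had 126.8 ± 16.6 FPKM in salt and 108.3 ± 6.58 FPKM in control (SD, n = 3), 0.35 higher on the log2 scale (edgeR adjusted p = 0.040). With these clusters added, the WLIM1 to WLIM2b ratio was 1.86 times higher in salt. The tested WLIM2a, WLIM2b and SF3 clusters, 1 each, were not called, and 0 of 3 PLIM clusters passed the filter.

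Of 15 tested DA1 and DA1-related clusters, edgeR called 8 lower and 1 higher, with a median log2 fold change of -1.47, and 6 were not called. Of all tested clusters 29.3% were called lower and 23.9% higher, with a median of -0.37, and of plant-matched clusters 35.5% and 12.3%, with a median of -0.62. With libraries scaled on plant-matched clusters 5 were called lower and 1 higher, and without a composition factor 9 and 0 (1 higher at an unadjusted p under 0.05). Their FPKM summed to 45.6 ± 0.973 in salt and 84.1 ± 1.09 in control (SD, n = 3). In CPM, which is not per length, the difference was smaller, with sums of 93.5 ± 2.15 in salt and 121.3 ± 6.44 in control (SD, n = 3). The most abundant, Cluster-71316.231150, was the 1 called higher, at 23.9 ± 0.381 FPKM in salt and 21.3 ± 1.23 FPKM in control (log2 fold change 0.29, edgeR adjusted p = 0.016). Some clusters called lower were near 0 in salt, among them Cluster-71316.146053 (0, 0 and 0.162 CPM) and Cluster-71316.133710 (0.213, 0.195 and 0.244 CPM). Others were not, among them Cluster-71316.247832 (7.74, 6.24 and 7.15 CPM in salt). A cluster can pass the filter through the control libraries alone. The count of lower calls and the median are therefore not by themselves support for a difference.

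**Figure D5:**
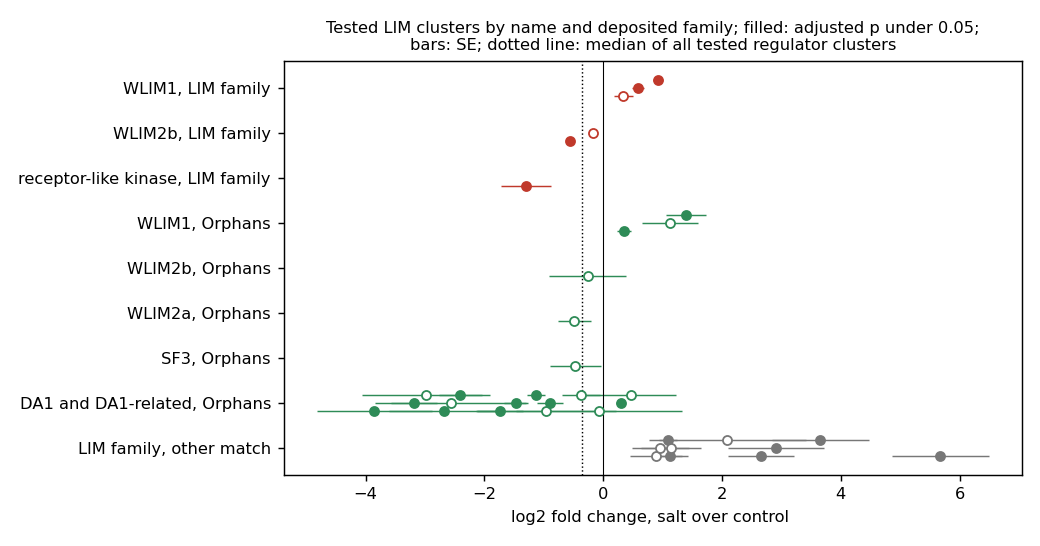
Log2 fold change of salt over control with SE for tested LIM clusters by protein name and deposited family, plant LIM clusters of the LIM family in red, names filed under Orphans in green and LIM-family clusters with another match in grey. Filled symbols have an edgeR adjusted p under 0.05, and the dotted line marks the median of all tested regulator clusters, -0.37.

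The other 45 LIM-family clusters matched no flowering plant protein, with names such as paxillin and zyxin, which belong to animal cell adhesion sites. They summed to 41.7 ± 0.162 FPKM in salt and 13.4 ± 1.59 FPKM in control (SD, n = 3). Only 10 passed the filter, and because a cluster can pass through the salt libraries alone, their 6 higher and 0 lower calls by edgeR (0 lower at an unadjusted p under 0.05 and by DESeq2) are not support for a difference. The part of transcripts without a plant match in the plant LIM values was not tested beyond the scaling on plant-matched clusters.

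Lists linked to LIM proteins in other plants were counted by the same fit. A cluster can pass the filter through the libraries of 1 group alone. Counts of calls in these lists, and among the root cell type markers below, are therefore not by themselves support for a difference. Beside each count stand 23.9% higher and 29.3% lower of all tested clusters (median -0.37), and 12.3% and 35.5% of plant-matched ones (median -0.62). Of 26 tested clusters of secondary wall and lignin regulators, edgeR called 0 higher and 13 lower, with a median log2 fold change of -0.91. At an unadjusted p under 0.05 edgeR had 0 higher, DESeq2 called 0 higher and 12 lower, and scaling on plant-matched clusters gave 1 higher and 9 lower. They include KNAT7, a homeodomain regulator of secondary walls, whose Cluster-71316.176933 had 16.3 FPKM in salt and 35.1 FPKM in control (log2 fold change -0.98, edgeR adjusted p = 2.6e-04). The wall and lignin list was not split into activators and repressors, and it holds MYB4, named a transcription repressor. Its counts therefore give no direction for wall or lignin genes. Of 31 tested core histone clusters, edgeR called 26 higher and 0 lower, with a median of 1.39. Lower clusters also numbered 0 at an unadjusted p under 0.05 and by DESeq2, which called 32 higher. That list pools histones H2A, H2B and H4. Among its tested H4 clusters, Cluster-71316.157373 was called higher (log2 fold change 1.84, edgeR adjusted p = 0.022). The H4 clusters Cluster-71316.166403, Cluster-71316.173290 and Cluster-71316.157372 were not called (edgeR adjusted p = 0.21, 0.065 and 0.22). Of 7 tested class I TCP clusters, growth regulators that DA1 acts on in Arabidopsis, 1 was called higher and 3 lower, against 2 and 0 with plant-matched scaling (1 lower at an unadjusted p under 0.05, and 1 called lower by DESeq2). Of 5 tested root hair regulators, edgeR called 0 higher and 4 lower, as it did at an unadjusted p under 0.05 and as DESeq2 did. These lower calls include the GL2 clusters Cluster-71316.147398 and Cluster-71316.94748, which are counted again among the root cell type markers. The NAC076, NAC026, NAC007, NAC030 and NAC037 clusters of the wall and lignin list are counted again there too. Among them is Cluster-71316.100859 (NAC076), called lower. Both GL2 clusters were low in salt (0.12, 0.45 and 0.65 FPKM, and 0.5, 0.85 and 0.5 FPKM), and so was BHLH83 (0.33, 0.36 and 0.92 FPKM). BHLH66 Cluster-71316.231718, also called lower, had 5.96, 5.58 and 4.12 FPKM in salt. The root hair list was not split into regulators that promote and that limit hairs, so its count gives no direction for root hairs.

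Markers of root cell types were counted as well. Their 95 clusters, of which 93 were detected, summed to between 169.73 and 193.22 FPKM in salt and between 368.86 and 385.01 FPKM in control. Most of that sum was APL, a phloem regulator, whose 38 clusters summed to 95.7 ± 9.50 FPKM in salt and 233.9 ± 4.35 FPKM in control (SD, n = 3). SHR (14.2 ± 0.899 FPKM in salt and 30.1 ± 1.13 FPKM in control) was also lower in all salt libraries. So were NAC076 (9.83 ± 0.281 FPKM in salt and 36.7 ± 0.594 FPKM in control), GL2, FEZ, SMB, BRN2, NAC026 and NAC030. Of single tested clusters, 42.6% were lower in all salt libraries and 26% higher in all. No BRN2, NAC026 or NAC030 cluster was tested, and their salt sums (0.0567, 0.343 and 0.0933 FPKM) are too low to give a fold. The root meristem regulators PLT2 (4.39 ± 0.967 FPKM in salt and 1.82 ± 0.328 FPKM in control) and AIL6 (17.7 ± 1.48 FPKM in salt and 12.7 ± 0.938 FPKM in control) were higher in all salt libraries. The summed levels of SCR, SCR1, WER, WOX5, NAC007 and NAC037 overlapped between groups. Of 41 tested, edgeR called 2 higher and 16 lower, 4.88% and 39.0%, with a median log2 fold change of -1.07. The lower share is near the 35.5% of plant-matched clusters. With plant-matched scaling the calls were 2 higher and 9 lower. No cluster matched the listed pollen regulators. The part of cell composition in the plant LIM values was not tested.

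Across the 6 libraries, 42 of 5278 other tested clusters had a Pearson r above 0.99 with Cluster-71316.170809 in log2(CPM + 1). The 3 most alike were Cluster-44869.0, named non-histone chromosomal protein 6 (r = 0.999), Cluster-71316.221057, named auxin response factor 19 (r = 0.998), and Cluster-71316.14330, named N-alpha-acetyltransferase 20 (r = 0.998). The libraries form 2 groups that these 3 clusters separate, so r describes these 6 points alone.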

How the data were processed

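RNA from 6 root libraries was sequenced, per the labels, from Illumina TruSeq libraries. The authors deposited FPKM for all clusters and, for regulator clusters, expected counts, FPKM, annotation and their own log2 ratio and q-value. Bowtie2 2.0.6 and TopHat2 2.0.12 are named in the submitters' processing notes without a role. No source used here gives the assembler, counter or genome. The database match scores are as deposited by the authors. Expected counts were rounded. Depth came from counts over FPKM for clusters with at least 200 counts and 1000 bases, times TMM factors of all clusters. edgeR 4.0.16 (R 4.3.3) ran the quasi-likelihood test after filterByExpr, with Benjamini-Hochberg adjustment over all tested regulators. It was tested on simulated counts. limma 3.58.1 and DESeq2 1.42.0 gave alternatives. The SE is implied by the F statistic. Floors of 3 counts cover counting error only. Members, lists and tests were chosen with earlier results of these data known, and the MYB4 name pattern was narrowed after names were seen. Per-library values are given for the 2 most abundant clusters of each name and all called members, and the rest were added after values were seen. Counts of the comparison lists under other scalings and by DESeq2 were added after seeing the data. The labels do not say whether replicate numbers pair libraries, and the main fit had no replicate block.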

Additional observations from a re-analysis of the deposited data

How the results depend on the processing

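Over 17 alternatives, Cluster-71316.170809 (0.78 to 1.37 on the log2 scale) and Cluster-71316.170047 (0.45 to 1.04) stayed called higher. Cluster-71316.142455 kept its call except with plant-matched scaling (-0.10). Cluster-71316.170046 was called higher with DESeq2 size factors (0.61), column sums (0.55), plant-matched scaling (0.79) and the DESeq2 test (0.62), and ranged over 0.23 to 0.47 without 1 library. Cluster-71316.205150 turned positive with DESeq2 size factors (0.11), column sums (0.040), plant-matched scaling (0.28) and the DESeq2 test (0.11), and was called lower without a composition factor (-0.29) and by limma on log2(FPKM + 1) (-0.29) and log2(FPKM + 0.1) (-0.29). Scaling moved the median of all clusters by 0.30 (DESeq2 size factors), 0.22 (column sums), -0.14 (no composition factor) and 0.51 (plant-matched clusters). The cause was not tested.

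Cluster-71316.24826 lost its call with DESeq2 size factors (-1.02), column sums (-1.09), plant-matched scaling (-0.85), the DESeq2 test (-1.02), no count filter (-1.30) and unfiltered limma (-0.53), and without any 1 library (-1.56 to -1.05). Lower calls among plant LIM clusters were then 1, and 0 with plant-matched scaling, where higher calls were 4. Without 1 library, higher calls were 2 to 3 and lower calls 1 to 1. In the whole table the DESeq2 test called 2332 higher, plant-matched scaling called 899 lower, and fits without 1 library called 1166 to 1371 higher and 1108 to 1638 lower. The WLIM1 to WLIM2b ratio was not planned, and its alternatives were chosen after seeing the data. Its salt mean over its control mean was 2.10 from counts, 1.86 with Orphans clusters and 1.94 to 2.05 without 1 library.

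Same-numbered libraries correlated at r = 0.020 to 0.043 in their deviations, and differently numbered ones at -0.038 to 0.017. All values are small, and with so few libraries they neither show nor exclude pairing. With the replicate block, Cluster-71316.24826 was at -1.35 and no longer called, leaving 1 lower plant LIM call, and 1026 clusters were called higher and 1118 lower in the whole table.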
